A study of Mus musculus with 12 samples.

Results

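Mouse embryonic fibroblasts that lack ATF6a were compared after 24 h of tunicamycin and without treatment, over every miRNA that the arrays could measure. The comparison rests on 4 of the study's 12 miRNA arrays, chosen by their sample labels: 2 arrays of untreated knockout cells and 2 of knockout cells after 24 h. Of 650 miRNAs on the array, 611 are mouse miRNAs, and 175 were bright enough to test, 174 of them from mouse. The other arrays, 2 for each group, hold knockout cells after 12 h, wild type cells without treatment, and wild type cells after 12 and 24 h. All cells are labelled embryonic fibroblasts of genotype ATF6aKO or ATF6aWT on a C57BL/6 background, grown in the same medium, and treated cells received tunicamycin at 2 ug/mL. The labels do not say what allele disrupts ATF6a, whether the cells are a line, or how many embryos they came from. They describe the replicates as independent experiments, with no record of separate cultures or animals, so the p-values measure the spread between these arrays.

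MicroRNAs are short RNAs that load into Argonaute proteins and lower the stability and translation of messenger RNAs, which they find mainly through the seed, bases 2 to 8 of the mature strand. miRNAs with the same seed form a family with largely shared targets. Tunicamycin blocks N-linked glycosylation, so that unfolded proteins build up in the endoplasmic reticulum and set off the unfolded protein response, whose sensors are IRE1, PERK and ATF6. ATF6a leaves the endoplasmic reticulum for the Golgi, is cleaved there, and its free fragment turns on chaperone genes in the nucleus, a step that knockout cells lack while the other sensors remain. The array does not probe messenger RNAs, so the loss of ATF6a could not be checked here.

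The mature sequences below are those of the miRNAs on which the results turn, from RefSeq (GRCm38.p6), with the seed in capitals. Of the 18 miRNAs that passed the test, 16 matched an entry; miR-199b* and miR-689 are named only. The first lines show 3 that rose.
miR-1224: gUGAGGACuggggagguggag
miR-135a*: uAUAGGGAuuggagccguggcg
miR-148a: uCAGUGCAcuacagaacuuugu
The next lines show miRNAs of the miR-199 and miR-214 genes, which fell together. The sequence printed for miR-199a-3p is also that of miR-199b-3p, with 0 differing bases, so its probes cannot tell these miRNAs apart.
miR-214: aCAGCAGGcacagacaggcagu
miR-199a-5p: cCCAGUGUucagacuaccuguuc
miR-199a-3p: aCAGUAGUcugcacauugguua
The last lines set 3 miRNAs that fell, let-7i, miR-322 and miR-26a, beside relatives with the same seed that did not pass the test.
let-7i: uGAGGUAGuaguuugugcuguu
let-7g: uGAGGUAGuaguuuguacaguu
let-7b: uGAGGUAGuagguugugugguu
let-7e: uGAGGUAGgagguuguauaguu
miR-322: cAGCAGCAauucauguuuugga
miR-15b: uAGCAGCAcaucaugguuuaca
miR-16: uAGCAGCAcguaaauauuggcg
miR-26a: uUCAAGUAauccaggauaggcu
miR-26b: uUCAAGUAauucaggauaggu

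Levels below are log2 scaled intensities, where 0 is the 75th percentile of the probes detected on all 12 arrays, and a floor at -5.02 stands for the dimmest signals. Changes are differences of mean levels on that log2 scale, ± SE of the fit, with n = 2 arrays per group. A miRNA is called measured on an array that detected it above background and where none of its used probes sat at the floor. The 4 arrays did not detect equally: 163 and 170 miRNAs were well above background on the untreated arrays, 171 on 24 h replicate 1 and 91 on 24 h replicate 2. The dimmest probe well above background lay at -5.50 on 24 h replicate 1 and at -3.10 on replicate 2, which was scanned in run 4 together with replicate 2 of every other treated group. Over the 175 miRNAs the SD of the difference between replicates was 0.206 for the untreated pair and 0.801 for the 24 h pair. Every untreated array lay on slide 1 and was scanned in run 1 or 2. Every treated array lay on slide 2 and was scanned in run 3 or 4. An effect of the slide or of the run cannot be told apart from that of tunicamycin. Of the 7 fibroblast marker miRNAs, 6 were well above background on all 4 arrays and miR-145 on none, with a summed scaled intensity of 29.6 and 31.1 untreated and 23.7 and 20.5 at 24 h. Markers of epithelium, neurons, blood, endothelium, liver and pluripotent cells were well above background on none of the 4 arrays, with sums of at most 0.0857, and among muscle markers only miR-206 was, on 24 h replicate 1. In these bulk samples fewer cells of a type and less RNA per cell cannot be told apart.

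After 24 h of tunicamycin, 4 miRNAs rose and 14 fell in knockout cells (limma, adjusted p under 0.05). miR-1224 rose 16.9-fold, while miR-214, miR-199a-5p, miR-199a-3p and miR-199b*, which mark mesenchymal cells, fell by factors of 1.91 to 2.66. let-7i, miR-322 and miR-26a fell too, miR-26a close to the threshold and with a call in only 7 of 29 settings. Their seed relatives did not pass the test, but some of these were dim. Differences between relatives were not tested. These 18 calls are 10.3% of the 175 tested miRNAs, the 4 rises 2.29% and the 14 falls 8%, and 43 miRNAs had an unadjusted p under 0.05. The groups did not overlap, with both 24 h arrays beyond both untreated arrays, for 101 miRNAs or 57.7%, 37 of them higher and 64 lower. The median change of all tested miRNAs was -0.000491. A miRNA was tested if both arrays of some group detected it. Of the 175, 11 were well above background on both untreated arrays and neither 24 h array, and 1 the other way. How far this filter and the weaker detection on 24 h replicate 2 bear on the balance of falls and rises was not tested.

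Only 8 of the 18 called miRNAs were measured on all 4 arrays: miR-1224, miR-214, miR-199a-5p, miR-199a-3p, miR-199b*, let-7i, miR-322 and miR-26a. Among all 66 measured miRNAs the changes ran 36 higher to 30 lower with a median of 0.04. Without 24 h replicate 2, 8 miRNAs passed: miR-1224, miR-689, miR-135a*, miR-214, miR-199a-3p, miR-222, miR-218 and miR-210. Of these, miR-1224, miR-689, miR-214, miR-199a-3p and miR-218 were among the calls in each of 12 fits with 1 array left out. So were miR-222, miR-210 and miR-135a*, but these lay at the floor on both arrays of a group, and leaving out an array there could not move them. miR-218 had 1 probe at the floor on both 24 h arrays. Without all 4 arrays of run 4, 52 passed, 17 of the 18 among them, in a fit that takes the lone treated arrays to vary like the untreated groups. Scaling on all probes left 0 calls in limma, with 11 at an unadjusted p under 0.05, and moved the median of all miRNAs to -0.50; the median was -0.16 with quantile normalization, 0.17 with normexp and -0.23 with the scanner software's summed signal, where 9, 4 and 9 passed.

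**Figure D1:**
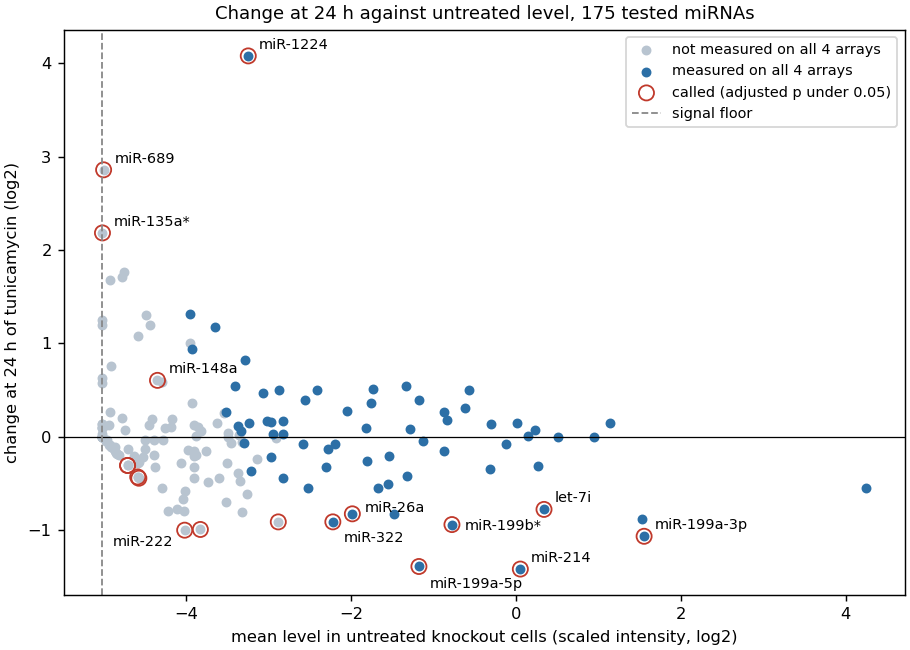
Change at 24 h of tunicamycin (log2, vertical axis) against the mean level in untreated knockout cells (log2 scaled intensity, horizontal axis) for the 175 tested miRNAs. Dark points were measured on all 4 arrays, red rings mark the 18 that passed, and the dashed line is the floor at -5.02; miR-1224 stands far above all others at 4.08, and the called falls on the right are those of measured miRNAs.

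Among the rises, miR-1224, a miRNA made from a short intron by splicing rather than by Drosha, had the largest change. Its level was -3.41 and -3.08 on the untreated arrays and 0.92 and 0.74 on the 24 h arrays. The groups stood wide apart, and the change of 4.08 ± 0.26 was 16.9-fold (limma, adjusted p = 6.4e-05). Its 2 probes gave 4.07 and 4.08. Measured against the median of all miRNAs, the change was 2.74 to 4.08 over 6 ways of scaling and background correction, and it was 3.91 to 4.24 with single arrays or run 4 left out, passing each time.

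The other 3 rises were dim in untreated cells. miR-135a*, the passenger strand of a miR-135a hairpin, lay at the floor on both untreated arrays, where it was not well above background, and at -2.69 and -2.97 on the 24 h arrays. It was the only tested miRNA well above background on both 24 h arrays and on neither untreated array, and it was at least 4.54-fold higher with the scanner software's background (limma, adjusted p = 0.0016). Among all groups, only knockout cells at 24 h had it well above background on both arrays. It thus entered the test through the group where it was high, and its calls here and below are not independent of that. With normexp the change of miR-135a* was 0.75, under that bound, and did not pass. miR-689, listed here among array entries that may be pieces of abundant RNAs, was at -5.02 and -4.99 untreated and at -2.14 on each 24 h array. The groups did not overlap, and the floor limits the size of its change, 2.86 ± 0.15 (limma, adjusted p = 3.6e-05). The change of miR-689 was 1.1 with normexp, where it passed, and 0.56 with the scanner software's sums and in the deposited table, where it did not.

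miR-148a, a miRNA known to target DNA methyltransferase transcripts, was at -4.45 and -4.25 untreated and at -3.66 and -3.82 at 24 h. Both 24 h arrays were above both untreated arrays, and the change was 0.61 ± 0.12 (limma, adjusted p = 0.013), but only 1 of the 24 h arrays was well above background. It did not pass without either 24 h array (0.53 and 0.68) or without untreated replicate 1 (0.50), and scaled on all probes its change was -0.02, against a median of -0.50 for all miRNAs. miR-152, which shares its seed, was at -4.86 and -4.90 untreated and at -5.00 and -5.02 at 24 h, and did not pass (-0.13 ± 0.06).

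miR-1224 and miR-135a* have GC contents of 66.7% and 59.1%. They belong to a list drawn up for miRNAs that are GC-rich or often bright on arrays. GC content was not looked up for its other members, so the list is not one of GC-rich miRNAs alone. Of its 25 members on the array 7 were tested and 2 rose, beside 4 of all 175 tested miRNAs. The median change was 0.59, beside -0.000491 over all tested miRNAs. miR-709 was at -1.02 and -0.71 untreated and at -0.70 and -1.33 at 24 h, with overlapping groups. miR-494 was at -4.91 and -4.59 untreated and at -2.70 and -3.27 at 24 h, the largest change that did not pass (1.77 ± 0.83). Of 3 tested entries of the list of possible pieces of abundant RNAs, miR-689 rose; miR-720, which overlaps a transfer RNA, did not pass (0.15 ± 0.21), and miR-690 was at -4.15 and -3.92 untreated against -4.45 and -4.94 at 24 h (-0.66 ± 0.45). The part of GC content or of such RNAs in the rises was not tested.

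**Figure D2:**
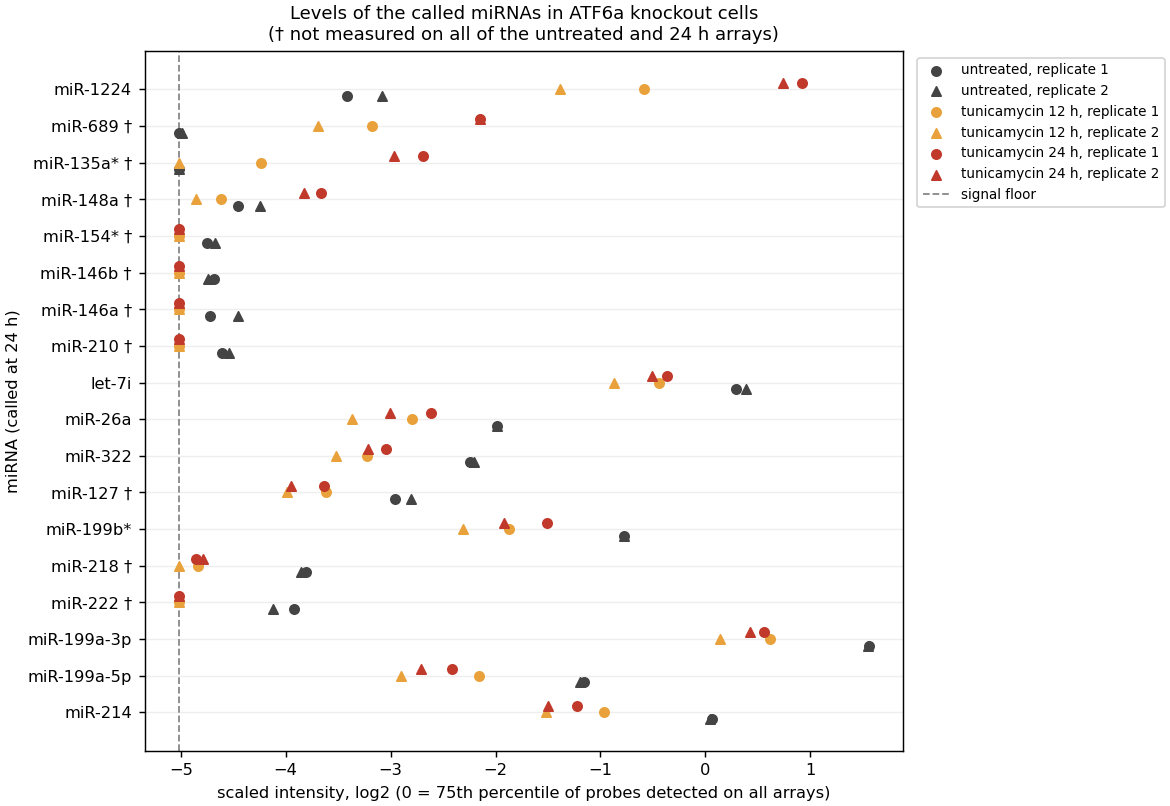
Level of the 18 called miRNAs (log2 scaled intensity) on each knockout array, untreated, at 12 h and at 24 h, with circles for replicate 1 and triangles for replicate 2. miR-1224 goes from -3.41 and -3.08 to 0.92 and 0.74, miR-214 and the miR-199 strands fall within the bright range, and several miRNAs with a dagger end at the floor.

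Among miRNAs well above the floor on all 4 arrays, those of the miR-199 and miR-214 genes fell. miR-214 and miR-199a can be processed from 1 long non-coding transcript in mesenchymal cells, and miR-199b comes from another locus. The array does not show which transcript a mature miRNA came from. miR-214 was at 0.06 and 0.04 untreated and at -1.23 and -1.50 at 24 h. The untreated arrays nearly coincided and both 24 h arrays lay far below them, a fall of 1.41 ± 0.19 on the log2 scale or 2.66-fold (limma, adjusted p = 0.0028).

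miR-199a-5p was at -1.16 and -1.20 untreated and at -2.41 and -2.71 at 24 h, and fell by 1.39 ± 0.23 (2.61-fold; limma, adjusted p = 0.0095). miR-199a-3p, the opposite strand of the same hairpin, was at 1.56 and 1.55 untreated and at 0.55 and 0.43 at 24 h. It fell by 1.06 ± 0.14 (2.09-fold; limma, adjusted p = 0.0028). miR-199b*, from another locus, was at -0.78 on each untreated array and at -1.51 and -1.92 at 24 h. It fell by 0.94 ± 0.17 (1.91-fold, limma, adjusted p = 0.012). All 4 were lower on each 24 h array than on each untreated array, and the probes of each moved the same way. miR-214 and miR-199a-3p passed with any array left out, whereas miR-199a-5p and miR-199b* did not pass without 24 h replicate 2 (-1.24 and -0.73), untreated replicate 1 (-1.37 and -0.94) or untreated replicate 2 (-1.41 and -0.93). Measured against the median of all miRNAs, all 4 stayed below 0 under 6 ways of scaling and background correction, miR-214 at -1.70 to -1.03 and miR-199a-3p at -1.40 to -0.79.

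They belong to a list of 24 miRNAs that are prominent in fibroblasts and other mesenchymal cells, of which 23 were tested. Of these, 5 fell and 0 rose, beside 14 falls and 4 rises among all 175 tested miRNAs. Changes were below 0 for 20 members, beside 88 of all 175. The list median was -0.44, beside -0.000491 over all tested miRNAs. The 17 measured members had a median of -0.54. Groups did not overlap for 16, all lower at 24 h, where 64 of all 175 tested miRNAs were lower without overlap. The 6 detected fibroblast markers are members of this list, so their summed level, given above, moves with it. The fifth call was miR-222, discussed with the dim miRNAs, and the direction of its change depends on the signal used. Measured against the median of all miRNAs, the median of the list was -0.66 to -0.22 over the 6 ways of scaling and background correction.

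Several members stood lower at 24 h without passing. miR-21, a miRNA abundant in fibroblasts, was at 4.17 and 4.33 untreated and at 3.84 and 3.56 at 24 h (-0.55 ± 0.18). miR-125b-5p, a homologue of worm lin-4, was at 1.57 and 1.49 untreated and at 0.90 and 0.39 at 24 h (-0.88 ± 0.24; limma, adjusted p = 0.069). For both the groups did not overlap. miR-221 was at -1.51 and -1.46 untreated and at -2.11 and -2.51 at 24 h (-0.82 ± 0.25). At the other end, miR-22, miR-23a, miR-27a and miR-29a gave -0.0045, 0.01, 0.07 and 0.0027, and their untreated and 24 h arrays overlapped.

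let-7i was the member of the let-7 family that fell. The let-7 miRNAs rise as cells differentiate and restrain growth genes such as Lin28 and Hmga2, and all carry the seed GAGGUAG. let-7i was at 0.29 and 0.39 untreated and at -0.36 and -0.51 at 24 h. Both 24 h arrays lay below both untreated arrays, a fall of 0.77 ± 0.14 or 1.71-fold (limma, adjusted p = 0.011). It did not pass without 24 h replicate 2 (-0.70) or untreated replicate 2 (-0.72).

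The other 8 tested miRNAs with this seed, let-7a to let-7g and miR-98, all had changes above 0, and none passed. These changes ran from 0.08 for let-7c to 0.50 for let-7e. Among all 175 tested miRNAs, 77 had changes above 0. let-7e was at -0.72 and -0.43 untreated and at -0.13 and -0.02 at 24 h (0.50 ± 0.22), and let-7b at -1.32 and -1.04 untreated and at -0.80 and -0.77 at 24 h (0.40 ± 0.15). For 7 of the 8 both 24 h arrays were above both untreated arrays, as for 37 of all 175 tested miRNAs. Scaled on all probes, let-7e and let-7b gave -0.24 and -0.35, against a median of -0.50 for all miRNAs. let-7g, which differs from let-7i at 2 bases, was at -1.84 and -1.79 untreated and at -1.69 and -1.75 at 24 h (0.10 ± 0.18). let-7i differs from the others at 3 to 6 bases, and the probes of such close sequences can share signal, so that a difference between them may be understated. The list of 9 had a median of 0.15, which relative to the median of all miRNAs was above 0 in 4 of 6 settings, while let-7i was below it in all 6, at -1.09 to -0.53.

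miR-322, the mouse counterpart of human miR-424, is made from an X-linked cluster with miR-503 and shares the seed AGCAGCA with miR-15 and miR-16, which target cyclins and Bcl2. It was at -2.24 and -2.20 untreated and at -3.04 and -3.22 at 24 h. The groups were well separated, a fall of 0.91 ± 0.14 or 1.88-fold (limma, adjusted p = 0.005), and it did not pass without 24 h replicate 2 (-0.82).

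The relatives of miR-322 did not pass. miR-15b was at -0.94 and -0.81 untreated and at -0.63 and -0.60 at 24 h (0.26 ± 0.11), and miR-16 at -2.04 and -2.06 untreated and at -1.70 and -1.83 at 24 h (0.28 ± 0.17). miR-15a gave 0.31 ± 0.27, and all 3 were higher on each 24 h array than on each untreated array without passing. miR-195 and miR-497 share the seed as well but were dim, at -4.97 and -4.88 and at -4.58 and -4.60 untreated, and lay at the floor at 24 h, where neither was well above background. Of the 6 tested miRNAs of this group 1 fell, beside 14 of all 175, and the median was 0.09. The difference between miR-322 and its relatives was not tested as such.

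miR-26a, which restrains Ezh2 and cell cycle genes, was at -1.99 and -1.98 untreated and at -2.61 and -3.0 at 24 h. It fell by 0.82 ± 0.20 (1.77-fold; limma, adjusted p = 0.046), close to the threshold, and did not pass without either 24 h array (-1.02 and -0.63), either untreated array (-0.82 each) or any wild type array (-0.82). miR-26b, with the same seed and 2 differing bases, was at -3.36 and -3.29 untreated. At 24 h it was at -3.18 and -3.57, with overlapping groups (-0.05 ± 0.21). miR-26b was not measured on all 4 arrays. Its untreated levels lie below the dimmest detected signal of 24 h replicate 2 (-3.10), which limits what its change can show.

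**Figure D3:**
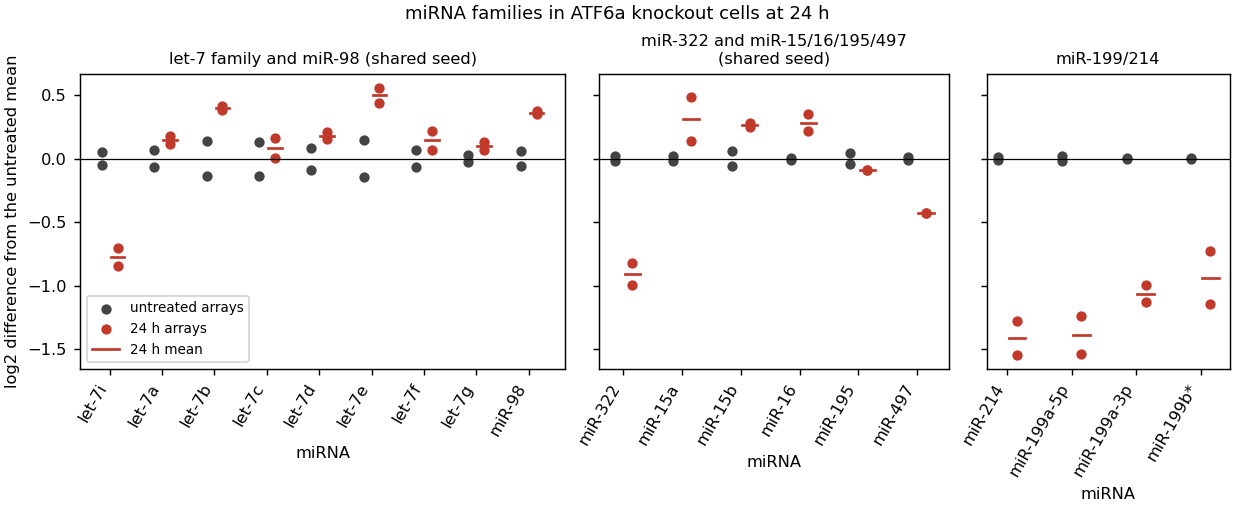
Difference of each array from the untreated mean (log2) for the let-7 family, for miR-322 with 5 seed relatives, and for miR-214 with the miR-199 strands, with grey points for the 2 untreated and red points for the 2 arrays at 24 h. let-7i and miR-322 lie at -0.77 and -0.91 on average while the other let-7 miRNAs, miR-15a, miR-15b and miR-16 lie above 0, miR-195 and miR-497 end at the floor at 24 h, and the 4 miRNAs of the right panel all lie below -0.7.

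The other 7 called falls were of dim miRNAs and are limited by the floor or by detection on 24 h replicate 2. miR-127, a miRNA of the imprinted Dlk1-Dio3 region that opposes Rtl1, was at -2.96 and -2.81 untreated and at -3.64 and -3.95 at 24 h (-0.91 ± 0.19; limma, adjusted p = 0.021). It did not pass without 24 h replicate 2 (-0.75) or either untreated array (-0.98 and -0.83), and was 1.47 with the summed signal. miR-218, carried in introns of the Slit genes, was at -3.81 and -3.85 untreated and at -4.85 and -4.79 at 24 h (-0.99 ± 0.07; limma, adjusted p = 0.00011).

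miR-222, which with miR-221 targets the cell cycle inhibitor p27, was at -3.92 and -4.12 untreated and at the floor on both 24 h arrays (limma, adjusted p = 0.00011). The lack of any spread at the floor enters the SE of such miRNAs. No fold is given for miR-222, whose change was -0.36 with the scanner software's sums, -0.0017 with normexp and 1.73 in the deposited table, so its direction depends on the signal used. miR-210, the best known miRNA induced by hypoxia, was at -4.61 and -4.54 untreated, and not well above background at 24 h (limma, adjusted p = 0.0021). miR-146a and miR-146b, which share a seed and dampen NF-kB signalling, were at -4.72 and -4.46, and at -4.68 and -4.74, untreated. Only the untreated knockout arrays had miR-146b well above background, so it entered the test through the group where it was high. miR-154* of the Dlk1-Dio3 region was at -4.75 and -4.67 untreated. These 4 were at the floor on both 24 h arrays with no signal well above background, and their untreated levels lie below the dimmest detected signal of 24 h replicate 2 (-3.10), so no fold is given. With normexp in place of the scanner software's background, miR-218, miR-210, miR-146a, miR-146b and miR-154* had changes of 0.06, 0.08, 0.05, 0.07 and 0.12.

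A list drawn up for the Dlk1-Dio3 imprinted region, whose large miRNA cluster is expressed from the maternal chromosome, had 77 members on the array and 33 tested. Of these 2 fell, miR-127 and miR-154*, and 0 rose, beside 14 falls and 4 rises among all 175 tested miRNAs. The list median was -0.17, beside -0.000491 over all tested miRNAs. Groups did not overlap for 22 lower at 24 h and 1 higher, beside 64 and 37 of all 175 tested miRNAs. The largest change of the list was a rise, that of miR-494 (1.77), given above, which did not pass. Only miR-379 and miR-299* were measured on all 4 arrays. miR-379 was at -2.30 and -2.31 untreated and at -2.48 and -2.76 at 24 h (-0.32 ± 0.25), and miR-299* at -3.32 and -3.28 untreated and at -3.27 and -3.46 at 24 h (-0.07 ± 0.31). Neither passed. Relative to the median of all miRNAs, the list median was below 0 in 4 of 6 settings.

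miRNAs with a published place in the unfolded protein response form a list of 23, of which 12 were tested. miR-214, miR-199a-5p, miR-222 and miR-322 fell and 0 rose, beside 14 falls and 4 rises among all 175 tested miRNAs. The first 3 are also calls of the mesenchymal list. The median was -0.43. Groups did not overlap for 6 of the 12 lower at 24 h and 0 higher, beside 64 and 37 of all 175. miR-125b-5p (-0.88) and miR-221 (-0.82), given above, are members that did not pass. miR-106b, miR-93 and miR-25, a cluster reported to be lowered through PERK, gave 0.15, -0.0071 and 0.15, with overlapping groups. miR-34a, reported to be lowered by IRE1, was at -1.14 and -1.13 untreated and at -1.08 and -1.27 at 24 h (-0.04 ± 0.11). miR-96 and miR-30d gave 0.07 and 0.04.

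Among the 9 tested members of the miR-17 cluster and its paralogues, which Myc drives and which promote proliferation, 0 passed and the median was 0.27. The 7 measured members had a median of 0.36, and all had changes above 0, as did 36 of all 66 measured miRNAs. miR-19b was at -1.34 on each untreated array and at -0.62 and -0.97 at 24 h (0.54 ± 0.18; limma, adjusted p = 0.099). miR-92a was at -1.86 and -1.62 untreated and at -1.03 and -1.40 at 24 h (0.52 ± 0.25). Scaled on all probes, miR-19b and miR-92a gave -0.20 and -0.23. miR-19a gave 0.50 ± 0.22 and miR-20a 0.36 ± 0.21. In each of these the groups did not overlap, and relative to the median of all miRNAs the list median was 0.12 to 0.54 over 6 settings.

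Other families showed no call. The p53-responsive miR-34 family had 3 tested members with a median of -0.08, and the untreated and 24 h arrays of miR-34b-5p and miR-34c overlapped. Of the miR-30 family 6 were tested (median 0.02), with miR-30a at -2.87 and -2.78 untreated and at -2.47 and -2.84 at 24 h. miR-29a, miR-29b and miR-29c, which target collagen transcripts, gave 0.0027, -0.08 and -0.00049. The 5 miRNAs of the miR-23, miR-27 and miR-24 clusters had a median of -0.20, with miR-24 at 0.30 and 0.22 untreated and at 0.13 and -0.23 at 24 h (-0.31 ± 0.27). Of 4 tested miRNAs of the Hox clusters, 0 passed, and miR-10b was at -3.01 and -2.93 untreated and at -2.91 and -2.70 at 24 h (0.16 ± 0.17). miR-196a was at -4.21 and -4.0 untreated and at -5.02 and -4.74 at 24 h, lower without overlap and limited by the floor (-0.77 ± 0.24; limma, adjusted p = 0.092). Of the miR-183, miR-96 and miR-182 cluster 3 were tested with a median of 0.07.

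Some of the largest changes rested mainly on 24 h replicate 2. A list of 40 miRNAs on the array, those of the repeated miR-297, miR-466, miR-467 and miR-669 families of a Sfmbt2 intron together with miR-574, had 13 tested members, 0 calls and a median of 1.08. All 13 changes were above 0, as were 77 of all 175. Both 24 h arrays were above both untreated arrays for 5: miR-466a-3p, miR-467a*, miR-467b, miR-669a and miR-669f, beside 37 of all 175. miR-466i was at -3.56 and -4.30 untreated, at -4.49 on 24 h replicate 1 and at -1.49 on replicate 2. miR-467f was at -2.97 and -3.61 untreated and at -3.77 and -1.16 at 24 h, and miR-669f at -3.41 and -3.89 untreated and at -3.36 and -1.59 at 24 h. In each of these replicate 2 was the highest of the 4 arrays and replicate 1 lay near or below the untreated ones, and the SE of their changes was 1.87, 1.57 and 1.21. miR-574-5p (-2.38 and -2.74 untreated, -3.04 and -1.30 at 24 h) and miR-1187 (-3.19 and -3.62 untreated, -3.87 and -1.86 at 24 h) had the same pattern.

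Of the 5 largest changes that did not pass, miR-467a*, miR-877* and miR-574-3p were likewise much higher on replicate 2, at -1.83, -1.48 and -1.35 against -4.32, -5.02 and -5.02 on replicate 1. miR-494, given above, and miR-139-3p were high on both 24 h arrays. miR-139-3p was at -3.75 and -4.16 untreated and at -2.69 and -2.59 at 24 h, a change of 1.32 ± 0.83 in which the groups did not overlap.

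**Figure D4:**
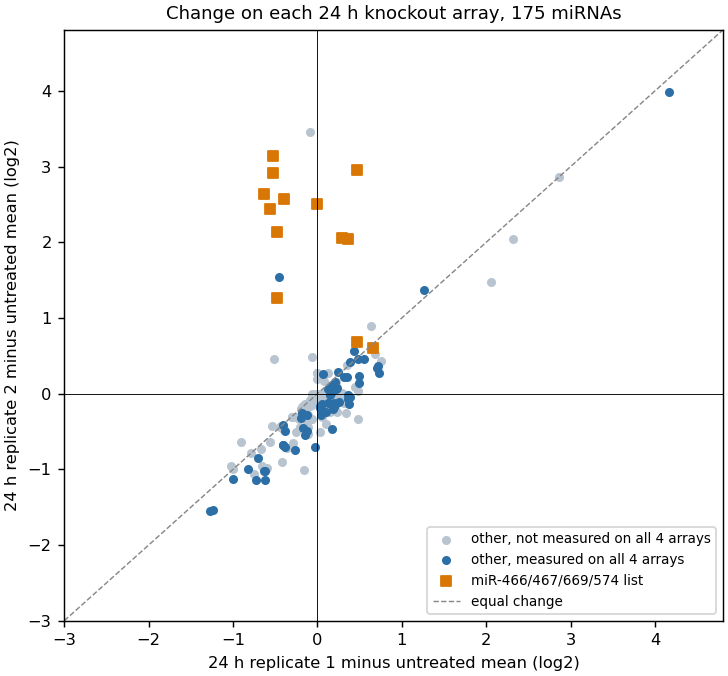
Change from the untreated mean (log2) on 24 h replicate 1 (horizontal axis) and on 24 h replicate 2 (vertical axis) for the 175 tested miRNAs, with orange squares for the 13 tested miRNAs of the miR-466, miR-467, miR-669 and miR-574 list. Most of these squares stand above the dashed line of equal change, as miR-466i does, whereas miR-1224 lies near the line at the upper right.

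Between 12 and 24 h of tunicamycin in knockout cells, 4 miRNAs or 2.29% rose and 0 fell (limma, adjusted p under 0.05), with 18 at an unadjusted p under 0.05. This test had no term for the scanning run, which pairs these arrays. With run as a fixed block in limma, 4 rose and 4 fell, with 33 at an unadjusted p under 0.05. The 4 reported rises are the miRNAs that rose from untreated to 24 h, and both comparisons share the 24 h arrays. miR-1224 was at -0.59 and -1.38 at 12 h and rose by a further 1.81 ± 0.26 (limma, adjusted p = 0.0075). miR-135a* was at -4.24 and at the floor at 12 h (1.79 ± 0.25), and miR-689 at -3.17 and -3.70 (1.29 ± 0.15). miR-148a was at -4.61 and -4.85 at 12 h, below its untreated level, and rose by 0.99 ± 0.12 (limma, adjusted p = 0.0047).

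The miRNAs that fell also stood below their untreated level at 12 h. Against the same untreated arrays, miR-214 gave -1.29 at 12 h and -1.41 at 24 h, miR-199a-5p -1.35 and -1.39, miR-199a-3p -1.18 and -1.06, and miR-199b* -1.31 and -0.94. The values were -1.0 and -0.77 for let-7i, -1.15 and -0.91 for miR-322, and -1.10 and -0.82 for miR-26a. None of these passed the reported test of the difference between the times, which had no run term (limma, adjusted p of 0.49 or more). Without 12 h replicate 1, 56 miRNAs passed between the times, without 24 h replicate 1 none did (15 at an unadjusted p under 0.05), and without the arrays of run 4, 13 did. With run as a block 8 passed, 4 in each direction. In limma 0 passed between the times when scaled on all probes, with quantile normalization, with the scanner software's sums, or with only these groups or only the 6 knockout arrays fitted (2, 4, 6, 6 and 14 at an unadjusted p under 0.05), while 1 passed with normexp. Of 5 that passed in the deposited table, 1 was higher and 4 were lower.

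Wild type cells at 24 h were set against their own untreated arrays, and the difference of the responses, knockout minus wild type, was tested; it shares the 4 knockout arrays with the comparison above. It passed for 23 miRNAs or 13.1% (18 higher and 5 lower in the knockout; limma, adjusted p under 0.05), with 47 at an unadjusted p under 0.05. Only miR-1224, miR-23b and miR-20b among them were measured on all 8 arrays. Every knockout array lay in row 2 of its slide and every wild type array in row 1. An effect of the row cannot be told apart from that of genotype. miR-1224 was at -3.02 and -3.04 in untreated wild type cells and at -0.88 and -0.55 at 24 h, a change of 2.32 there against 4.08 in the knockout, a difference of 1.75 ± 0.36 (limma, adjusted p = 0.021).

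miR-23b, made from a cluster with miR-27b and miR-24, was at -1.59 and -1.49 in untreated knockout cells and at -1.66 and -1.81 at 24 h. In wild type cells it was at -1.93 and -1.95 untreated and at -3.33 and -3.30 at 24 h, so that the knockout change of -0.20 stood 1.17 ± 0.30 above the wild type change of -1.37 (limma, adjusted p = 0.045). miR-20b gave 0.27 in the knockout and 0.86 in wild type cells, a difference of -0.59 ± 0.15 (limma, adjusted p = 0.045). When only miRNAs measured on all 8 arrays were fitted, 0 of 60 passed in limma, with 4 at an unadjusted p under 0.05. Over all tested miRNAs 0 differences passed when scaled on all probes, with quantile normalization, with normexp and in the deposited table (limma; 2, 11, 1 and 14 at an unadjusted p under 0.05), and 2 with the scanner software's sums, 0 of them among the 23.

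The other 20 calls are of miRNAs not measured on all 8 arrays, 10 of them on the Dlk1-Dio3 list. miR-148a gave 0.61 in the knockout and -0.82 in wild type cells, where it was at -3.24 and -3.08 untreated and at -4.01 and -3.95 at 24 h (difference 1.43 ± 0.16; limma, adjusted p = 0.0016). miR-135a* was at -4.60 and at the floor in wild type cells at 24 h, and at the floor in untreated ones (difference 1.97 ± 0.35; limma, adjusted p = 0.012). Several of the others started higher in untreated wild type cells and ended at or near the floor at 24 h in both genotypes, as did miR-210, at -3.86 and -3.83 in untreated wild type cells. For such miRNAs the floor limits the knockout change more than the wild type change.

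Of the measured falls, miR-214 gave -0.83 in wild type cells and -1.41 in the knockout, a difference of -0.58 that did not pass (limma, adjusted p = 0.21). miR-199a-5p gave -1.26 in wild type cells, let-7i -1.12, miR-322 -1.04 and miR-26a -1.50, and none of their differences from the knockout passed, at -0.13, 0.34, 0.13 and 0.68. Without run 4, where each treated group keeps 1 array, 82 differences passed; with single arrays left out, 11 (without knockout 24 h replicate 1) to 45 (without either 12 h knockout array) passed.

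**Figure D5:**
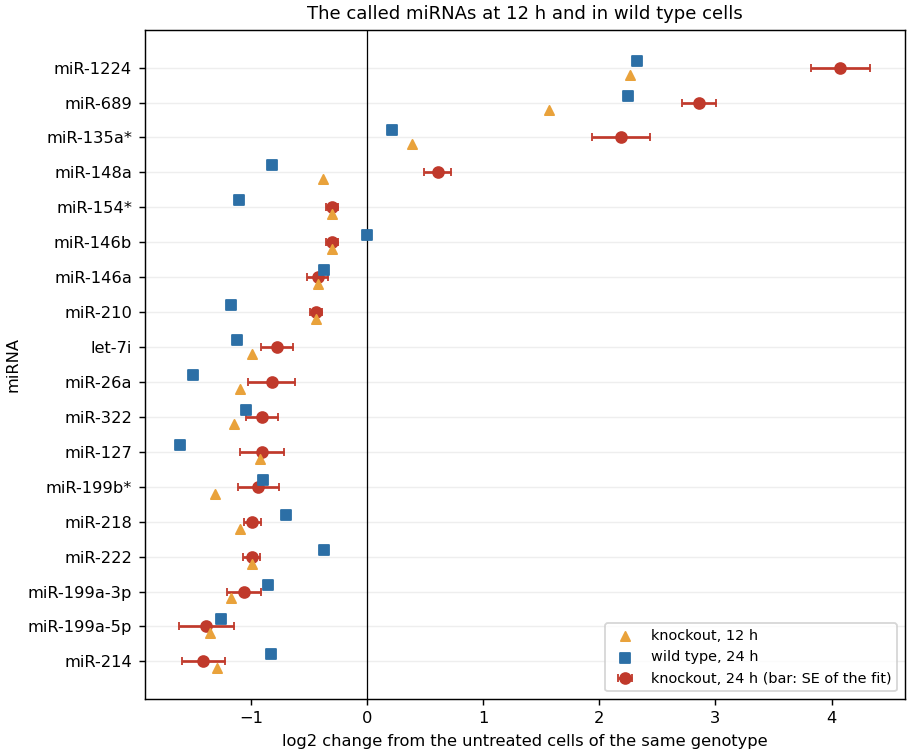
Log2 change from the untreated cells of the same genotype for the 18 called miRNAs, in knockout cells at 24 h (red, bar ± SE of the fit), in knockout cells at 12 h (orange triangles, same untreated arrays) and in wild type cells at 24 h (blue squares). miR-1224 lies at 4.08 in the knockout at 24 h and at 2.32 in wild type cells, and miR-148a lies on opposite sides of 0 in the genotypes at 24 h.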

How the data were processed

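Total RNA (100 ng per array) was labelled with Cy3 and hybridised to 1-colour mouse miRNA arrays, per the labels' protocols. The authors deposited linear spot intensity values with background already subtracted, which per the file headers were not scaled to each other; the submitters' processing notes name Agilent Feature Extraction 10.7.1.1. A deposited table of log2 values, each equal to the log2 of the software's summed signal, was used as an alternative only. No genome build is named, so no coordinates are given.

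Of 13715 spots per array, 715 control spots and outlier spots were left out, and 0 were saturated. Spots were averaged for 1857 probes, divided by the array's 75th percentile over 87 probes well above background on all arrays, floored at 0.0309 (from the lowest detected signal of each array, the median was taken) and log2 transformed. A probe counts as well above background where the software says so for over 0.5 of its spots. The 306 probes that passed this on both arrays of some group were averaged per miRNA (175 miRNAs, 1 of them viral). The fit was made with limma 3.58.1 under R 4.3.3 over 6 group means (12 arrays, 6 residual and 1.16 prior degrees of freedom, no covariate). Benjamini-Hochberg adjustment ran over all 175, with a threshold of 0.05. The fit was also run on simulated data with independent noise and no run effect or floor. Such data cannot show how the test behaves where arrays share a run or values sit at the floor. A group not well above background gives a bound against the floor or lowest detected signal.

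Replicate numbers did not pair untreated with 24 h arrays: the correlation of their deviations from the group means was -0.66. Among treated groups, where the replicate number goes with the scanning run, they did pair arrays. The correlation was 0.87 for knockout cells at 12 h and 24 h, and 0.94 for wild type and knockout cells at 24 h. The reported tests used no covariate, so this pairing entered only the alternatives with a block. Named are all called miRNAs with groups that do not overlap, up to 4 measured members of each list with the largest changes, up to 10 calls of each other comparison, and the 5 largest changes not called; further list members and measured calls are named after their values were seen. Members and lists were chosen with earlier results of these data known. Alternatives covered scaling, background, summary, filter, floor, probe choice, arrays fitted, blocks and each array left out. Array names were read as strands by hand to match RefSeq.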

Additional observations from a re-analysis of the deposited data

Results flagged for a closer look

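For 10 miRNAs the change at 24 h differed between the genotypes by the test of the difference itself (limma, adjusted p from 0.00092 to 0.0092), those with the smallest p values among 23. Values are knockout change minus wild type change on the log2 scale. Genotype coincided with the row on the slide, as given above. miR-99a, of a cluster with let-7c, differed by 1.65: it was at -4.41 and -4.36 in untreated knockout cells and at -4.45 and -4.40 at 24 h, and in wild type cells at -3.39 and -3.28 untreated and at the floor on both 24 h arrays. miR-148a differed by 1.43, as described, and its relative miR-152 by 0.63. Of the Dlk1-Dio3 region, miR-434-3p differed by 0.96, miR-409-3p by 0.81, miR-154* by 0.80, miR-543 by 0.70 and miR-376a* by 0.68. miR-210 differed by 0.73. miR-222 alone differed in the other direction, by -0.62, from untreated levels that were higher in the knockout (-3.92 and -4.12) than in wild type cells (-4.65 and -4.63). None of the 10 was measured on all 8 arrays, and all but miR-148a had a used probe at the floor on at least 1 wild type array at 24 h. miR-409-3p, miR-154*, miR-210, miR-543 and miR-222 were at the floor at 24 h in both genotypes, so that their differences equal the gaps between the untreated levels, and the knockout change of miR-543 was 0 at the floor. By limma none of the 10 differences passed with quantile normalization, with normexp, in the deposited table or with scaling over all probes, where 11, 1, 14 and 2 miRNAs had an unadjusted p under 0.05.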

How the results depend on the processing

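Over the named miRNAs the alternatives, apart from those added below, gave 1498 values on the same side of the threshold, 130 that no longer passed, 11 that newly passed and 10 of opposite sign with the value on either side past the threshold. Of the 1498, 87 values of 36 miRNAs, past the threshold on neither side, changed sign, 20 of them when scaled on all probes. Counts below are for 24 h against untreated, 24 h against 12 h, and the knockout minus wild type difference, where the reported counts are 18, 4 and 23. They were 0, 0 and 0 when scaled on all probes (11, 2 and 2 at an unadjusted p under 0.05 in limma), 9, 0 and 0 with quantile normalization (15, 4 and 11 unadjusted), 4, 1 and 0 with normexp on the median spot signal (the mean signal was not used here), 9, 0 and 2 with the scanner software's sums, 5, 5 and 0 in the deposited table, and 9, 1 and 0 over measured miRNAs only. Without a filter on dim miRNAs they were 19, 7 and 15, with the floor at 0.5 times its value 18, 3 and 9, with it doubled 13, 7 and 25, and with the brightest probe 15, 7 and 21. With only the groups compared fitted they were 16, 0 and 42, and with only the 6 knockout arrays 6 and 0. The cause of these shifts was not tested.

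With replicate number as a block the counts were 25, 4 and 19, and the crossed pairing gave 25 for the first. With scanning run as a random block for the first and a fixed block for the others they were 20, 8 and 22. The random block cannot separate run from tunicamycin, since untreated and treated arrays share no run. With an array left out they ranged from 8 to 32, 0 to 56 and 11 to 45, the highest first count without either 12 h knockout array. Without the 4 arrays of run 4, an alternative chosen after seeing the data as the crossed pairing was, they were 52, 13 and 82; the limit to miRNAs detected in a compared group, likewise added, gave 18.

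Values of opposite sign, with either side past the threshold, were -0.019 for miR-148a scaled on all probes; 0.058, 0.078, 0.048, 0.067 and 0.12 for miR-218, miR-210, miR-146a, miR-146b and miR-154* with normexp; 1.47 for miR-127 with the scanner software's sums; 1.73, 1.47 and 2.56 for miR-222, miR-127 and miR-152 in the deposited table. Signal over background limits every miRNA dimmer than -3.10 on 24 h replicate 2.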
